A study of Mus musculus with 8 samples.

Results

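Stabilised β-catenin was compared with wildtype in tdTomato-labelled cells of the mouse growth plate. The comparison used 4 of the 8 libraries of the series, the 2 labelled GoF (gain of function) and the 2 labelled WT. A gene was tested where 2 or more of these 4 libraries reached 1 FPKM, which held for 10919 of the 48490 genes in the deposited table. FPKM is the number of fragments of a gene scaled by its length and by the size of the library. Every mouse carried Col10a1Cre, a Cre recombinase under the control of a type X collagen gene of hypertrophic chondrocytes, and Rosa26-Tdtomato, a reporter that Cre switches on permanently. WT mice carried these alone. GoF mice also carried Ctnnb1-exon3 delta on 1 of their Ctnnb1 alleles, so that they kept a normal allele. Each library was made with Smart-seq2, a full-length amplification protocol, from 70 labelled cells of the proximal tibia picked at postnatal day 5. The labelled population holds the cells in which Col10a1Cre was ever active, which can include osteoblasts and stromal cells that descend from hypertrophic chondrocytes. The labels do not say whether libraries of a group came from separate animals, so the p-values reflect only how these libraries vary, and that variation may be technical. The 4 remaining libraries (LoF, with Ctnnb1 deleted) entered the estimate of the spread and of the sex term, and their values are given for a few genes.

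β-catenin is the effector of canonical Wnt signalling and also a component of cell junctions. Without a Wnt signal, a destruction complex built on Axin and APC holds the protein, kinases phosphorylate its amino-terminal end, and the marked protein is degraded. When a Wnt ligand binds Frizzled and LRP receptors the complex is inhibited, and β-catenin enters the nucleus and acts with TCF/LEF factors on target genes, several of which encode inhibitors of the pathway itself. In the skeleton the pathway is known to favour bone formation over cartilage and fat and to restrain bone resorption through osteoprotegerin.

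The phosphorylated residues are encoded by exon 3 of Ctnnb1, which is why its removal stabilises the protein. Exon 3 lies on chromosome 9 (GRCm38 chr9:120950522-120950749, + strand), is entirely coding, and spans 228 bases or 76 whole codons, so that its loss keeps the reading frame. In the sequence from the GENCODE M21 transcript, capitals mark the codons of serine 33, serine 37, threonine 41 and serine 45, which a script located in the translated transcript.
Ctnnb1 exon 3: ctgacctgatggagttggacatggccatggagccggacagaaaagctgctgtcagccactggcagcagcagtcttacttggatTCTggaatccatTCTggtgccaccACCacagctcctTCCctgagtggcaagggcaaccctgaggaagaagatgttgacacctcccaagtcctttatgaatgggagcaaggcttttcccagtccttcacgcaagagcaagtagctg

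Ctnnb1 itself (ENSMUSG00000006932.16) was at 72.0 and 86.7 FPKM in the GoF libraries and at 137 and 146 FPKM in WT. Both GoF values lay below both WT values, a log2 difference of -0.83 ± 0.27 (SE) that did not pass the test (limma, adjusted p = 0.132). A log2 difference is the GoF mean minus the WT mean of log2(FPKM + 1), with n = 2 libraries in each group here and throughout. The table holds 1 value per gene, so the loss of exon 3 on 1 allele cannot be read from it, and a change of protein stability is not measured by RNA.

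The libraries were alike in size, with 12792 to 13690 genes above 0 and a relative depth of 0.902 to 1.14 of WT library 2. The 10 most abundant genes took 22.1% to 24.3% of the FPKM of each. The groups also differed in sex. Y-linked transcripts summed to 47.7 and 43.7 FPKM in the GoF libraries, where Xist was listed at 0, while Xist was at 12.9 and 14.15 FPKM in WT, where the Y-linked sum was 0. Genotype and sex cannot be told apart within these 4 libraries. A sex term could be estimated only through the LoF libraries, of which 2 held Y-linked transcripts and 2 held Xist. The labelled cells were recognisable in both groups, since Ibsp, Sparc, Col1a1, Spp1, Alpl, Sp7 and Runx2 were detected in all 4 libraries. Col10a1, Ihh and Mmp13, which mark hypertrophic chondrocytes, differed between the groups and are described below.

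Summed markers of blood cells were higher in both WT libraries than in either GoF library. The 9 erythroid markers summed to 2559 and 10574 FPKM in WT and to 896 and 1838 FPKM in GoF. Among them Hbb-bt, a β-globin gene whose reads can be shared with its near-identical copy Hbb-bs, was at 0 and 23.3 FPKM in GoF and at 331 and 1494 FPKM in WT (adjusted p = 0.0342, lost without each of the 4 libraries in turn, with adjusted p up to 0.371). Hba-a2, an α-globin gene and the most abundant erythroid member not called, overlapped between the groups. It was at 685 and 1255 FPKM in GoF and at 640 and 2798 FPKM in WT (limma, adjusted p = 0.933). The 16 leukocyte markers summed to 286 and 100.1 FPKM in WT and to 36.8 and 48.9 FPKM in GoF, with 0 called. In WT this sum was mostly S100a8 and S100a9, calcium-binding proteins of neutrophils. Both were listed at 0 in both GoF libraries, so the GoF sums came from other members of the list. S100a8 was at 166 and 30.3 FPKM in WT (adjusted p = 0.0732). Of the defining leukocyte markers, Ptprc and Csf1r stayed below 1 FPKM in each of the 4 libraries, and Lyz2 is not given here. Other genes of blood cell precursors were called lower in GoF. Kel, a red cell membrane protein, was at 11.3 and 9.61 FPKM in WT, and Igll1 of early B cells was at 2.76 and 5.32 FPKM. Elane, a protease of immature granulocytes, was at 2.71 and 5.25 FPKM in WT. Kel, Igll1 and Elane were listed at 0 in GoF and were named after their values were seen. Kel and Igll1 were also listed at 0 in every LoF library, so leaving out a WT library could not test their calls. Elane lost its call without each of the 4 libraries in turn. The 10 endothelial markers summed to 7.58 and 5.43 FPKM in WT and to 1.57 and 1.8 FPKM in GoF, with Cdh5 and Kdr below 1 FPKM in each of the 4 libraries and Egfl7 at 5.68 and 4.76 FPKM in WT and listed at 0 in GoF. The 12 osteoclast markers summed to 117 and 111 FPKM in WT and to 125 and 138 FPKM in GoF, with 0 of 6 tested called. Most of that sum was Ctsk, which was at 69.2 and 58.5 FPKM in WT and at 76.5 and 77.8 FPKM in GoF. The rest came from other members of the list, and the defining markers Acp5 and Oscar are not given here. The part of blood and endothelial RNA, whose sums moved with the genotype, in the genes lower in GoF was not tested.

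Of the 10919 genes, 281 were higher in GoF (2.57%) and 167 were lower (1.53%), 448 in all (4.1%). The called members of each list below are to be read beside these shares. A gene was called at a Benjamini-Hochberg adjusted p under 0.05 in limma, which was fitted to log2(FPKM + 1). Differences on that scale understate the change of low genes. An unadjusted p under 0.05 was reached by 1882 genes. The median log2 difference over all genes was -0.07. The differences among called genes were large, with a median absolute log2 difference of 2.50. A log2 difference above 3 was found for 82 of the higher genes, and 48 of the lower genes were below -3. Of the higher genes 109 were listed at 0 in both WT libraries, and of the lower genes 26 were listed at 0 in both GoF libraries. The filter tested such a gene only where both libraries of the other group reached 1 FPKM. Its groups therefore could not overlap, and these counts do not measure how many genes were switched on or off. All 448 called genes had GoF and WT libraries that did not overlap, a pattern that was common among all genes. It was found in 2635 genes that were higher in GoF (24.1%) and in 3023 that were lower (27.7%), 5658 in all (51.8%).

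The count depended on single libraries and on the treatment of sex. It was 111 without WT library 1, 134 without WT library 2, 229 without GoF library 1 and 247 without GoF library 2, where the lone library of a group was taken to vary like those of the other groups. With sex as a covariate 39 genes were called, 34 of them among the 448. In that fit all 448 kept their direction, their median absolute log2 difference was 2.48, and the standard errors were 1.46 times as large at the median. Among 129 called genes chosen for closer checks, not all of them described here, 25 kept the call with sex as a covariate. The call was kept without any single one of the 8 libraries by 38. The call was lost without each of the 4 GoF and WT libraries in turn by 47 of them, Gdf5, Ptprz1, Top2a, Mcm4 and Fgf7 among these. Both sets that kept it held Mmp9, Cxcl12, Wisp2, Fabp5, Tnc, Sstr2, S1pr3, Ifitm3, Htra1, Itm2b, Msx2, Sp6, Lrrc15, Cck, Egfem1, Car12 and Fam84a. The 38 also hold genes listed at 0 in every WT and LoF library, such as Msx2, Cck and Egfem1. Leaving out a GoF library could not test those calls, since the remaining values gave them no spread. The same holds for Kel and Igll1, at 0 in every GoF and LoF library, without a WT library. In the sex-adjusted fit 0 tested genes of the BMP, IGF, FGF, hedgehog, Wnt ligand, cartilage, hypertrophic, osteocyte and stress response lists were called, 1 of the marrow stroma list (Cxcl12) and 2 of the matrix enzymes (Mmp9 and Htra1). It called Wisp1 of the Wnt feedback genes and Cthrc1 of the antagonists higher, both outside the 448. The plot of all genes shows both groups of calls far from the diagonal.

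**Figure D1:**
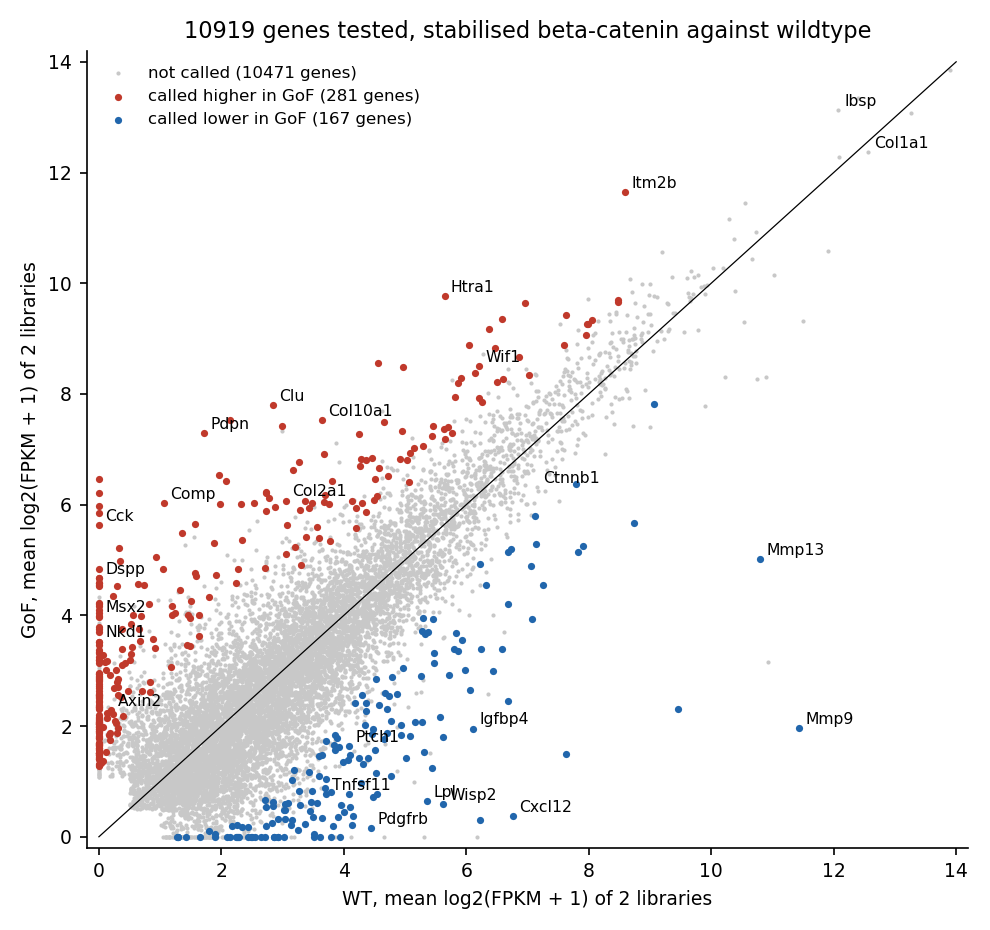
Mean log2(FPKM + 1) of the 2 WT libraries (horizontal axis) and of the 2 GoF libraries (vertical axis) for 10919 genes, with the line of equality. Red points are the 281 genes called higher in GoF and blue points the 167 called lower; Mmp9 and Mmp13 lie far below the line among abundant WT genes, while Col1a1 and Ibsp lie near it.

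Part of the Wnt feedback genes rose. Of 24 feedback inhibitors and targets, 18 passed the filter, and of these Nkd1, Bambi, Wif1 and Axin2 were higher in GoF and 0 were lower. The median log2 difference over the 18 tested genes was 1.25. Nkd1, which binds Dishevelled and dampens the signal, was at 10.1 and 10.9 FPKM in GoF and was listed at 0 in both WT libraries (log2 difference 3.53 ± 0.45 SE, adjusted p = 0.00265). It kept its call without any 1 of the 8 libraries. With sex as a covariate all 4 calls were lost, at an adjusted p of 0.0556 for Nkd1, 0.0615 for Bambi, 0.159 for Wif1 and 0.185 for Axin2. Bambi, a decoy receptor of the BMP and TGF-β family, was at 131 and 109 FPKM in GoF and at 11.1 and 12.7 FPKM in WT, 10.1-fold higher (log2 difference 3.23 ± 0.44 SE, adjusted p = 0.00384, or 0.0539 without GoF library 1). Axin2 (chr11:108920349-108950783 in mm10), the scaffold of the destruction complex and a widely used readout of the pathway, was at 5.26 and 2.81 FPKM in GoF and at 0 and 0.323 FPKM in WT. The log2 difference of Axin2 was 2.08 (± 0.38 SE, adjusted p = 0.0157). The call was lost without WT library 1 or WT library 2 (adjusted p = 0.129 and 0.0557) and with the 4 libraries fitted alone (adjusted p = 0.0856). Levels were low in both groups, and all 4 values were below 6 FPKM.

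Both called antagonists of Wnt ligands that are secreted were higher. Wif1, which binds Wnt ligands directly, was at 379 and 347 FPKM in GoF and at 101 and 52.5 FPKM in WT, 4.72-fold higher (adjusted p = 0.0276). Frzb, a secreted Frizzled-related protein, was at 101 and 115 FPKM in GoF and at 11.98 and 6.22 FPKM in WT, 11.8-fold higher (adjusted p = 0.0424). Both calls were lost without each of the 4 libraries in turn (adjusted p up to 0.240 for Wif1 and 0.293 for Frzb). Wif1 and Frzb were the called ones among 7 tested of 15 listed antagonists. Sost, the sclerostin gene of mature osteocytes, was listed at 0 in all 4 libraries.

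Several classic Wnt-responsive genes did not pass. Notum, a lipase that inactivates Wnt ligands, was at 10.8 and 29.7 FPKM in GoF and at 3.01 and 4.40 FPKM in WT (adjusted p = 0.212). Nkd2 was at 6.06 and 5.59 FPKM in GoF and at 0.910 and 0.461 FPKM in WT (adjusted p = 0.0693). In both genes the GoF libraries lay above the WT libraries. The transcription factor gene Lef1 was at 5.33 and 5.80 FPKM in GoF and at 2.96 and 1.99 FPKM in WT (adjusted p = 0.591). Tcf7 was at 6.15 and 14.1 FPKM in GoF and at 9.43 and 16.7 FPKM in WT (adjusted p = 0.808), and its groups overlapped. Wisp1, also a known target, was at 212 and 164 FPKM in GoF and at 52.7 and 75.0 FPKM in WT (adjusted p = 0.437, and 0.0331 with sex as a covariate).

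Among ligands and their secretion, 10 of 25 genes were tested. Wnt11, a ligand best known for signalling without β-catenin, was at 16.5 and 10.9 FPKM in GoF and at 0.517 and 0.376 FPKM in WT, 30.7-fold higher (adjusted p = 0.0157, up to 0.117 without each of the 4 libraries). Wls, the carrier that brings Wnt ligands to the cell surface, was lower, at 57.4 and 51.6 FPKM in GoF and at 133 and 142 FPKM in WT (log2 difference -1.32 ± 0.28 SE, adjusted p = 0.0273, up to 0.145 without each of the 4 libraries). In limma 0 of the 10 tested Frizzled, LRP and other receptors were called, beside 4.1% of all genes. The 21 tested genes of β-catenin's destruction and junction complexes also had 0 called. An unadjusted p under 0.05 was reached by 2 receptor and 4 complex genes, beside 1882 of all 10919 genes. Their median log2 differences were -0.71 and -0.11, against -0.07 over all genes. The plot of Wnt genes shows the called feedback genes with GoF libraries clear of WT, and the TCF/LEF genes close to each other.

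**Figure D2:**
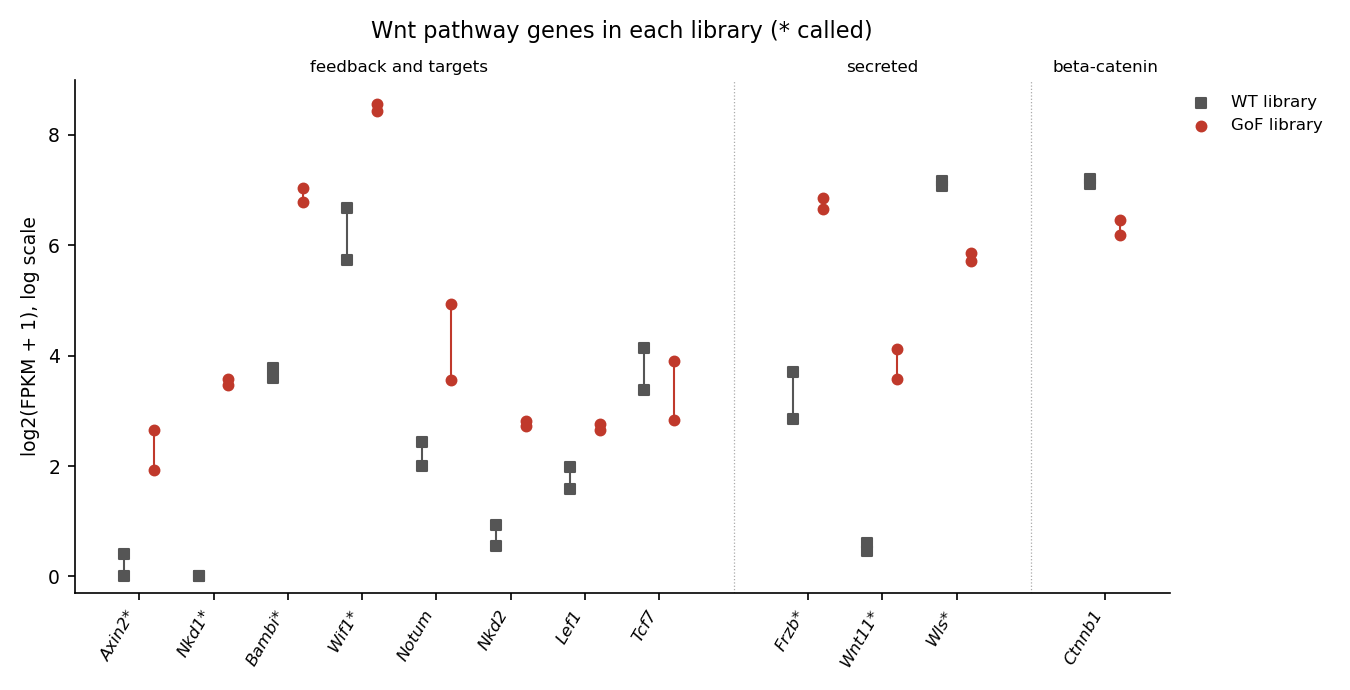
Each Wnt gene (horizontal axis) with log2(FPKM + 1) of the 2 WT libraries (grey squares) and the 2 GoF libraries (red circles); lines join libraries of a group and asterisks mark called genes. Nkd1 is at 0 in both WT libraries, and Tcf7 overlaps between the groups.

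A match to the TCF/LEF core was looked for upstream of 19 of the genes described here, since TCF/LEF factors carry β-catenin to DNA. The letters CTTTGAT and CTTTGAA were searched on both strands in the 250 bases before 1 RefSeq start of each gene (GRCm38.p6), and neither overlaps the other. That start is not always the start in the deposited table, and for Nkd1 it lies inside the gene there. Of the 19 genes 13 had an entry (Notum, Mmp9, Sp6, Dspp, Wisp2 and Bmp2 had none), and 2 of these held a match, Wnt11 and Cxcl12. They are shown because the first rose and the second fell in GoF. For both the window ends at the base before the gene's start in the deposited table. Capitals mark the match, which in both is on the reverse strand.
Wnt11, chr7:98834862-98835111, + strand: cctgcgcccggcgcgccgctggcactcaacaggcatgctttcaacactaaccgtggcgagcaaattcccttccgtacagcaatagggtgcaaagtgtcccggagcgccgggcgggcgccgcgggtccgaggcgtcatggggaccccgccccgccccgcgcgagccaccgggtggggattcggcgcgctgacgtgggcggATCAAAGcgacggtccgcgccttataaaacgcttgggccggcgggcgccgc
Cxcl12, chr6:117168285-117168534, + strand: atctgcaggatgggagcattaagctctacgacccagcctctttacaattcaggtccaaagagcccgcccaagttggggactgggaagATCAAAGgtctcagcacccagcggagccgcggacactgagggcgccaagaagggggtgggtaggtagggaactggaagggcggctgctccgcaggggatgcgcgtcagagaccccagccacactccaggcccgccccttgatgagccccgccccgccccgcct
A match was found in 7.5% of the 32851 promoters of the table and in 5.3% of those of 7882 tested genes with an entry. It was found in 17 of 183 higher genes with an entry (9.3%) and in 9 of 107 lower genes (8.4%).

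Most osteoblast genes did not pass the test. Of 30 osteoblast genes, all tested, 1 was higher, 2 were lower and 27 did not pass, with a median log2 difference of 0.42. Over all genes 2.57% were called higher and 1.53% lower. Median ratio scaling called 1 osteoblast gene higher and 4 lower, and sex as a covariate called 2 higher and 1 lower. Col1a1, a chain of type I collagen and the main protein of bone, was at 6090 and 4626 FPKM in GoF and at 5470 and 6681 FPKM in WT (log2 difference -0.19 ± 0.52 SE, adjusted p = 0.914), with overlapping groups. Ibsp, bone sialoprotein, was at 7467 and 10670 FPKM in GoF and at 5194 and 3564 FPKM in WT (adjusted p = 0.292). Spp1, osteopontin, was at 1200 and 1940 FPKM in GoF and at 4236 and 3450 FPKM in WT. Its log2 difference was -1.32 ± 0.32 (SE, limma, adjusted p = 0.0521, or 0.0423 with median ratio scaling). With sex as a covariate the log2 difference of Col1a1 was 1.215 ± 0.396 (SE, limma, adjusted p = 0.242). In that fit Ibsp was at 2.259 ± 0.413 (adjusted p = 0.0617) and Spp1 at -1.481 ± 0.455 (adjusted p = 0.214). The osteoblast transcription factor genes Runx2 and Sp7 did not pass (adjusted p = 0.295 and 0.725). Bglap, osteocalcin, varied widely within each group, from 142 to 462 FPKM in GoF and from 27.8 to 231 FPKM in WT (adjusted p = 0.479).

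The osteoblast-list genes that changed were a homeobox factor and proteins that remodel the matrix. Msx2, a homeobox transcription factor of skull, limb and tooth, was at 12.7 and 17.5 FPKM in GoF and was listed at 0 in both WT libraries (log2 difference 3.99 ± 0.39 SE, adjusted p = 0.000862). Its relative Msx1, named after its values were seen, moved the other way, with 1.56 and 0.609 FPKM in GoF and 7.64 and 8.27 FPKM in WT (adjusted p = 0.0273, lost without GoF library 2, WT library 1 or WT library 2, at 0.106, 0.145 and 0.136). Tnc, tenascin C, an adhesion-modulating matrix protein, was at 14.4 and 14.3 FPKM in GoF and at 188 and 94.5 FPKM in WT, 9.82-fold lower (adjusted p = 0.00216). Tnc kept its call without any 1 of the 8 libraries. For Msx2, listed at 0 in every WT and LoF library, leaving out a GoF library could not test the call. Mmp14 is given with the matrix enzymes.

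Genes of osteocytes, the cells embedded in bone, showed a partial difference. Of 15 genes 11 were tested, and Pdpn and Ptprz1 were higher, 0 were lower and 9 did not pass (median log2 difference 1.28). The share called higher over all genes was 2.57%. Pdpn, podoplanin, which shapes the processes of young osteocytes, was at 167 and 145 FPKM in GoF and at 1.496 and 3.35 FPKM in WT, 64.5-fold higher (log2 difference 5.57 ± 0.97 SE, adjusted p = 0.0127). Its call was lost without each of the 4 libraries in turn (adjusted p up to 0.166) and with a pseudocount of 0.1 (adjusted p = 0.119). Dmp1, a phosphoprotein of mineralising matrix, was at 523 and 177 FPKM in GoF and at 29.3 and 97.8 FPKM in WT and did not pass (adjusted p = 0.0961). Mepe, of late osteocytes, was listed at 0 in GoF and at 1.23 and 0.811 FPKM in WT, below the filter.

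Among 25 tested enzymes and chaperones of collagen processing, P4ha1 and P4ha2 were higher and Loxl1 was lower. Median ratio scaling called 5 higher, and sex as a covariate called 0 higher, at an adjusted p of 0.0519 for P4ha1 and 0.0719 for P4ha2. P4ha1 and P4ha2 are the catalytic subunits of prolyl 4-hydroxylase, which stabilises the collagen triple helix. P4ha1 was at 465 and 441 FPKM in GoF and at 92.7 and 83.6 FPKM in WT, 5.14-fold higher (adjusted p = 0.00268). P4ha2 was at 293 and 330 FPKM in GoF and at 57.7 and 60.4 FPKM in WT, 5.27-fold higher (adjusted p = 0.00265). The replicates of both genes agreed closely, and both calls held without any 1 of the 8 libraries. Loxl1, a crosslinking enzyme tied to elastic fibres, was listed at 0 in GoF and was at 20.4 and 9.93 FPKM in WT (adjusted p = 0.00709, or 0.0787, 0.0671 and 0.101 without GoF library 1, GoF library 2 and WT library 1). Fbn1, fibrillin 1 of elastic fibres, is on no list and was named after its values were seen. It was at 0.924 and 1.20 FPKM in GoF and at 13.2 and 11.1 FPKM in WT (adjusted p = 0.0157, up to 0.132 without each of the 4 libraries). Among 14 tested other collagens, Col3a1 and Col12a1 of fibrous connective tissue fell. Col3a1 was at 3.06 and 0.538 FPKM in GoF and at 14.8 and 23.9 FPKM in WT, 10.8-fold lower (adjusted p = 0.00821, or 0.0853 without WT library 2). Col12a1 was 4.82-fold lower (adjusted p = 0.00911, lost without GoF library 2, WT library 1 or WT library 2, up to 0.0956).

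A few cartilage matrix genes were higher. Of 24 cartilage genes 18 were tested, of which Comp, Chad and Col2a1 were higher and 0 lower (median log2 difference 1.40). Among all genes 2.57% were called higher. Col2a1, type II collagen, was at 90.3 and 48.8 FPKM in GoF and at 9.48 and 5.64 FPKM in WT, 9.20-fold higher (adjusted p = 0.0408). Comp, a pentameric protein that bridges collagens, was at 79.9 and 51.5 FPKM in GoF and at 0.269 and 2.41 FPKM in WT, 49.1-fold higher (adjusted p = 0.00496). Chad, chondroadherin, was at 33.8 and 22.4 FPKM in GoF and at 2.05 and 0.406 FPKM in WT (adjusted p = 0.0157). The GoF libraries lay above the WT libraries in all of these genes, but each call depended on single libraries. The Col2a1 and Chad calls were lost without each of the 4 libraries (adjusted p up to 0.371 and 0.133), and the Comp call without GoF library 1, GoF library 2 or WT library 1 (0.0996, 0.0577 and 0.0633). Sox9 itself, the master transcription factor gene of cartilage, was at 0.165 and 0.130 FPKM in GoF and at 0 and 1.93 FPKM in WT and was below the filter. Acan, aggrecan, was at 8.74 and 4.79 FPKM in GoF and at 1.49 and 2.15 FPKM in WT (adjusted p = 0.507).

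Called genes of hypertrophic chondrocytes went in both directions. Of 14 tested, Col10a1, Scin and Ihh were higher and Mmp13 was lower (median log2 difference 0.89). Scin lost its call without WT library 1 or WT library 2 (adjusted p = 0.124 and 0.175). Col10a1 (chr10:34389981-34397085 in mm10), the gene whose control elements drove the Cre, was at 190 and 177 FPKM in GoF and at 6.24 and 20.5 FPKM in WT, 13.7-fold higher (log2 difference 3.89 ± 0.93 SE, adjusted p = 0.0479). This call stood at the threshold and did not survive 13 of the 19 alternatives. Its adjusted p was 0.360 without GoF library 1, 0.274 without GoF library 2, 0.331 without WT library 1, 0.112 without WT library 2 and 0.490 with sex as a covariate. Ihh, Indian hedgehog, the ligand by which prehypertrophic chondrocytes signal, was at 1.46 and 3.91 FPKM in GoF and was listed at 0 in WT (adjusted p = 0.0303, and 0.151 and 0.126 without WT library 1 and WT library 2). Fewer cells of a type and less RNA per cell cannot be told apart in these bulk pools.

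Dspp, Mmp20 and Sp6, which are best known from teeth, were among the 12 largest differences higher in GoF. No list of tooth genes was tested, and Klk4, Ambn and Wdr72 were named after their values were seen. Dspp (chr5:104170712-104180127 in mm10), the precursor of dentin sialoprotein and phosphoprotein, was at 53.1 and 10.99 FPKM in GoF and was listed at 0 in WT (log2 difference 4.67 ± 0.63 SE, adjusted p = 0.00356). Mmp20, enamelysin, the protease of early enamel, was at 40.7 and 12.9 FPKM in GoF and was listed at 0 in WT (adjusted p = 0.00199). Klk4, the protease of maturing enamel, was at 6.77 and 6.28 FPKM in GoF and was listed at 0 in WT (adjusted p = 0.00213). All of these genes were also listed at 0 in the 4 LoF libraries, and GoF library 1 was several times above GoF library 2 for Dspp and Mmp20 but not for Klk4. Their calls were lost with sex as a covariate (adjusted p = 0.0736, 0.0543 and 0.0617). Leaving out a GoF library could not test these calls, since the WT and LoF libraries, all at 0, gave no spread. Sp6, epiprofin, a zinc finger factor required for tooth development, was at 40.9 and 31.8 FPKM in GoF and at 0.351 and 0.175 FPKM in WT, 138-fold higher (adjusted p = 0.000745, and 0.0279 with sex as a covariate). Ambn, ameloblastin, was at 4.72 and 1.18 FPKM in GoF and 0 in WT (adjusted p = 0.0499), a call lost in 14 of 19 alternatives, among them without WT library 1 and without WT library 2 (adjusted p = 0.213 and 0.189). The enamel matrix genes Amelx, Enam, Amtn and Odam, by contrast, were listed at 0 in all 4 libraries. Wdr72, needed for enamel maturation, was lower in GoF, listed at 0 against 3.73 and 3.85 FPKM in WT (adjusted p = 0.0439, up to 0.199 without each of the 4 libraries). Lrrc15, a leucine-rich repeat membrane protein, was at 26.0 and 35.7 FPKM in GoF and at 0.455 and 0.114 FPKM in WT (adjusted p = 0.000827).

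**Figure D3:**
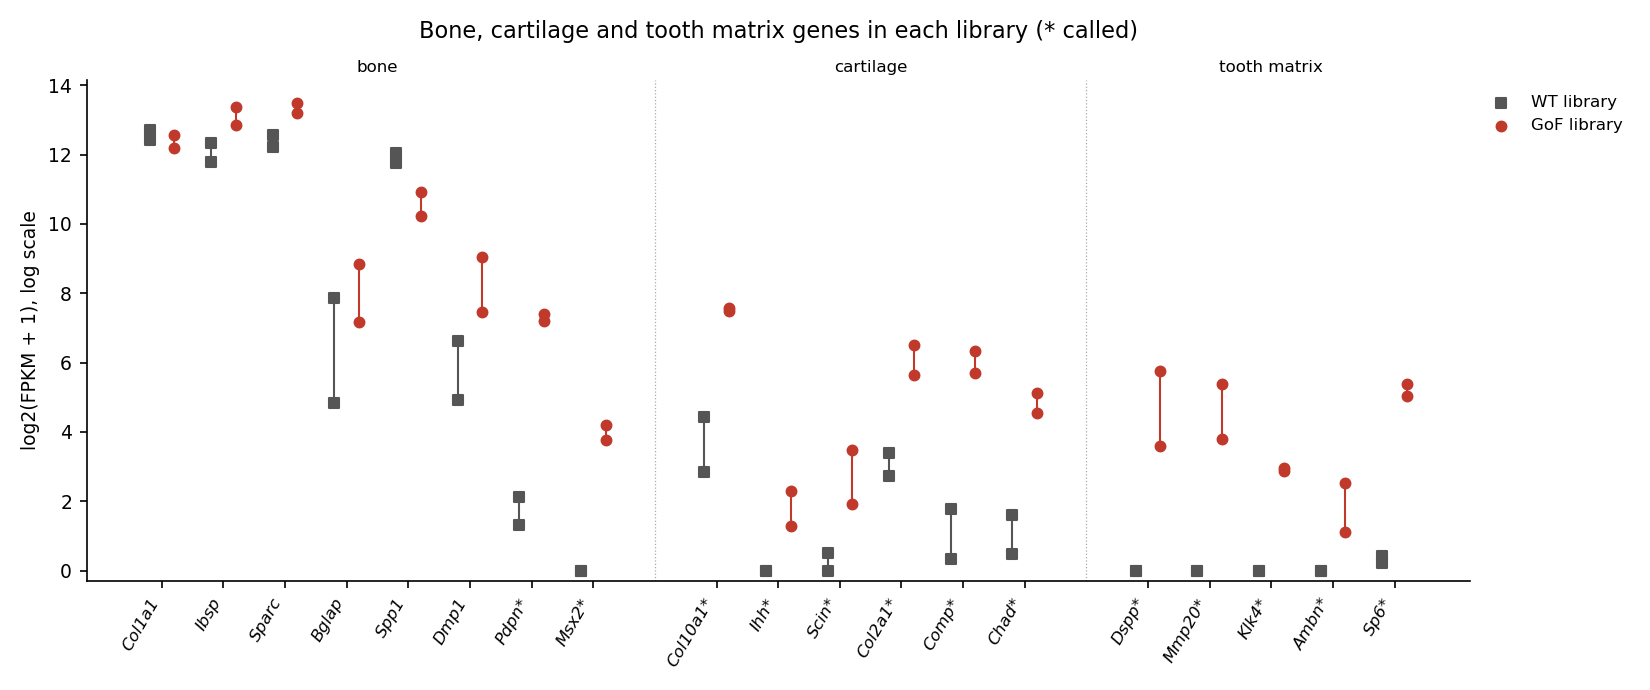
Bone, cartilage and tooth genes (horizontal axis) with log2(FPKM + 1) of the 2 WT libraries (grey squares) and the 2 GoF libraries (red circles); asterisks mark called genes. Col1a1 overlaps between the groups, Col10a1 is at 190 and 177 FPKM in GoF, and Dspp, Mmp20, Klk4 and Ambn are at 0 in both WT libraries.

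The lowest log2 difference of the 10919 genes was that of Mmp9, a matrix protease. Of 22 metalloproteinases, inhibitors and related genes 12 were tested, and 4 were lower, 1 was higher and 7 did not pass. Mmp9 (ENSMUSG00000017737.2, mm10 chr2:164940780-164955850), a gelatinase that opens mineralised cartilage to vessels and marrow, was at 3.27 and 2.56 FPKM in GoF and at 3167 and 2403 FPKM in WT. It was 955-fold lower (log2 difference -9.47 ± 0.29 SE, adjusted p = 1.51e-07), the smallest adjusted p among the 10919 genes, and it was called in all 19 alternatives (adjusted p up to 0.000791). Neutrophils and osteoclasts also make Mmp9. The leukocyte and osteoclast marker sums are given above, and the part of these cells in the Mmp9 difference was not tested. Mmp13 (mm10 chr9:7272514-7283333), the collagenase of hypertrophic cartilage, was at 10.9 and 86.7 FPKM in GoF and at 2106 and 1514 FPKM in WT, 37.1-fold lower (log2 difference -5.79 ± 0.70 SE, adjusted p = 0.00216). Its call held without any 1 of the 8 libraries, and with sex as a covariate the adjusted p was 0.0519.

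Smaller differences were seen in Mmp14 and Timp3. Mmp14, a membrane-bound collagenase, was at 102 and 65.7 FPKM in GoF and at 223 and 218 FPKM in WT, 2.63-fold lower (adjusted p = 0.0250, lost without GoF library 2, WT library 1 or WT library 2, with adjusted p up to 0.157). Timp3, an inhibitor of these enzymes, was at 0 and 1.69 FPKM in GoF and at 24.5 and 18.4 FPKM in WT (adjusted p = 0.00881, lost without GoF library 1, WT library 1 or WT library 2, with adjusted p up to 0.110). Both genes had GoF libraries below WT libraries. Htra1, a secreted serine protease, went the other way, from 65.2 and 36.8 FPKM in WT to 946 and 795 FPKM in GoF, 17.1-fold higher (log2 difference 4.12 ± 0.32 SE, adjusted p = 0.000384). Timp1, the most abundant inhibitor, did not pass (adjusted p = 0.349).

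Cytokines that act on osteoclasts and their precursors were lower where called. Of 14 genes that regulate osteoclasts 7 were tested, and Cxcl12, Tnfsf11 and Csf1 were lower and 0 higher. Tnfsf11 encodes RANKL, the cytokine that induces osteoclasts. It was at 1.31 and 0.257 FPKM in GoF and at 14.7 and 9.92 FPKM in WT, 15.7-fold lower (log2 difference -2.94 ± 0.41 SE, adjusted p = 0.00414, or 0.0569 without WT library 1). Csf1, a macrophage growth factor that osteoclast precursors need, was at 1.61 and 1.96 FPKM in GoF and at 25.1 and 10.2 FPKM in WT, 9.88-fold lower (adjusted p = 0.0241, lost without GoF library 1, GoF library 2 or WT library 1, at 0.181, 0.132 and 0.195). With sex as a covariate the calls of Tnfsf11 and Csf1 were lost (limma, adjusted p = 0.09165 and 0.242). They were also lost with the 4 libraries fitted alone (adjusted p = 0.0505 and 0.0683). Tnfrsf11b encodes osteoprotegerin, the soluble decoy that blocks RANKL and a known Wnt target. It was at 44.6 and 83.2 FPKM in GoF and at 9.72 and 11.3 FPKM in WT. The GoF libraries lay above the WT libraries, but the difference did not pass (log2 difference 2.43 ± 0.60 SE, adjusted p = 0.0536, or 0.0391 with median ratio scaling).

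Genes of Lepr-positive marrow stroma were lower in part. Of 26 genes 21 were tested, and Cxcl12, Pdgfrb, Igfbp4, Gas6 and Csf1 were lower, 0 were higher and 16 did not pass (median log2 difference -1.18). Cxcl12, a chemokine that holds blood stem cells in the marrow, was at 0.674 and 0 FPKM in GoF and at 236 and 49.1 FPKM in WT, 423-fold lower (log2 difference -6.40 ± 0.71 SE, adjusted p = 0.00170). Both WT values were far above both GoF values although they differed from each other severalfold, and the call held in all 19 alternatives. Ackr3, a scavenging receptor of Cxcl12 named after its values were seen, rose from 0.824 and 3.08 FPKM in WT to 19.7 and 11.54 FPKM in GoF (adjusted p = 0.0380, up to 0.270 without each of the 4 libraries). Pdgfrb, a growth factor receptor of stromal and perivascular cells, was at 0.123 and 0.0975 FPKM in GoF and at 39.3 and 10.9 FPKM in WT (adjusted p = 0.00245). Gas6, a ligand of TAM receptors, was at 0 and 0.665 FPKM in GoF and at 24.8 and 11.1 FPKM in WT (adjusted p = 0.00313). Lepr itself overlapped between the groups, at 38.1 and 56.9 FPKM in GoF and at 51.3 and 27.0 FPKM in WT (adjusted p = 0.914).

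Of 10 pericyte and smooth muscle markers 5 were tested, and Acta2 and Myl9 were lower and 3 did not pass. With sex as a covariate 0 were called. Acta2, smooth muscle actin, was at 0 and 0.336 FPKM in GoF and at 18.8 and 14.4 FPKM in WT (adjusted p = 0.0175, up to 0.185 without each of the 4 libraries), and Myl9, a myosin light chain, was 16.6-fold lower (adjusted p = 0.00610, lost without GoF library 1, WT library 1 or WT library 2, up to 0.0832). The defining pericyte gene Rgs5 was listed at 0 in both WT libraries, and Myh11 at 0 in all 4 libraries. The 10 markers summed to 5.86 and 7.12 FPKM in GoF and to 68.6 and 53.5 FPKM in WT. The part of pericytes in the stromal differences was not tested. Snai2 and Zeb2, transcription factor genes of mesenchymal cells named after their values were seen, were also lower (adjusted p = 0.0382 and 0.0439, up to 0.268 and 0.278 without each of the 4 libraries).

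Fat-related genes gave a narrow difference. Of 33 adipocyte genes 17 were tested, and Lpl and Fabp5 were lower, 0 higher and 15 not past the test (median log2 difference -0.29). Among all genes 1.53% were called lower. Lpl, lipoprotein lipase, was at 1.17 and 0.131 FPKM in GoF and at 95.4 and 16.5 FPKM in WT, 86.3-fold lower (adjusted p = 0.00422, or 0.0823 without GoF library 2). Fabp5, a fatty acid carrier made by many cell types, was at 48.0 and 52.1 FPKM in GoF and at 416 and 438 FPKM in WT, 8.53-fold lower (log2 difference -3.07 ± 0.25 SE, adjusted p = 0.000384). Its call held in all 19 alternatives. The genes that define adipocytes were low in both groups. Fabp4 was at 3.27 and 0 FPKM in GoF and at 1.88 and 0 FPKM in WT (adjusted p = 0.908). Pparg, the main adipogenic transcription factor gene, was at 0 and 0.679 FPKM in GoF and at 4.72 and 1.47 FPKM in WT (adjusted p = 0.226). Adipoq was at 11.96 FPKM in WT library 1 and listed at 0 in the other 3 libraries, and Cebpa did not exceed 1.52 FPKM.

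**Figure D4:**
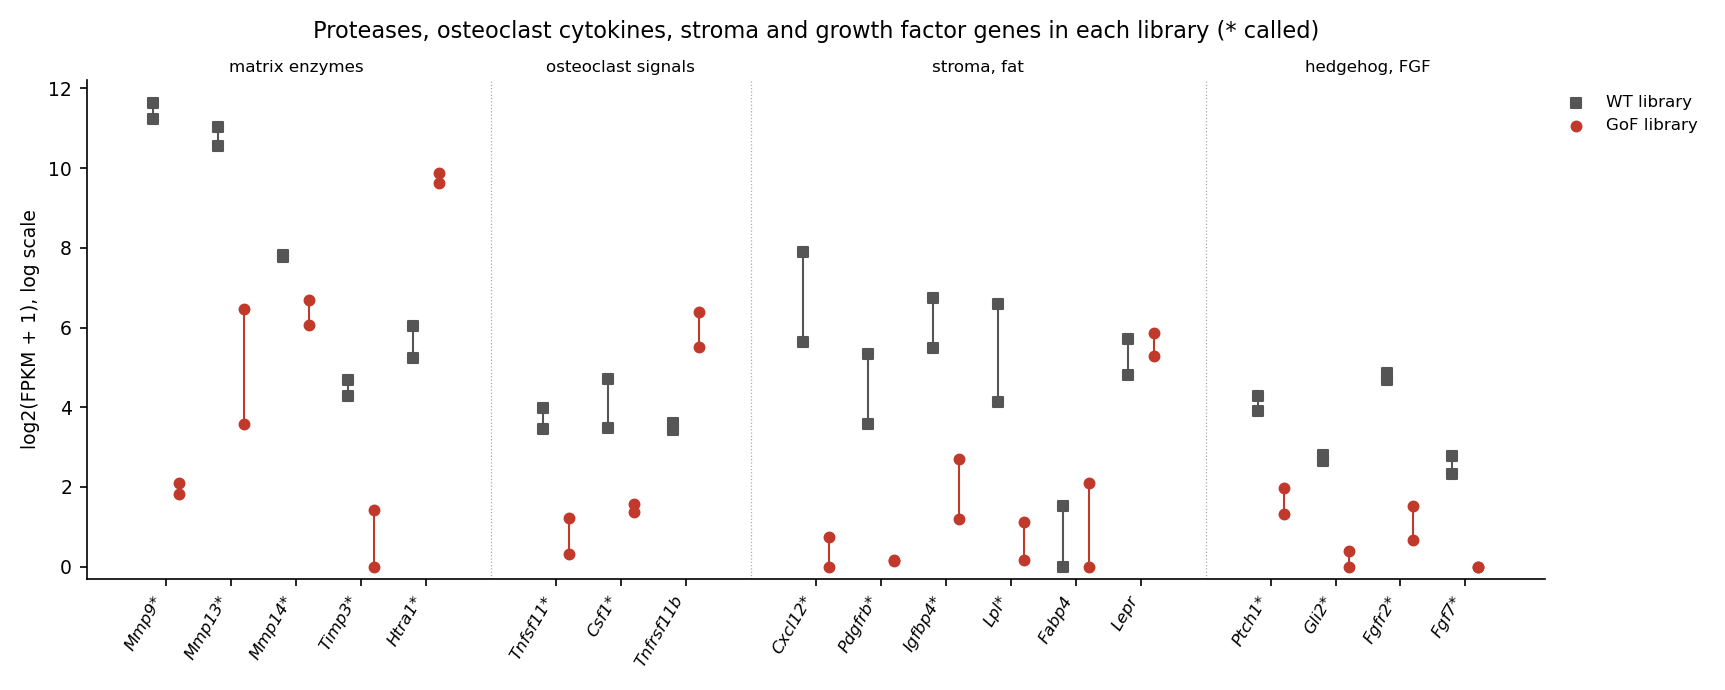
Proteases, osteoclast signals, stromal and growth factor genes (horizontal axis) with log2(FPKM + 1) of the 2 WT libraries (grey squares) and the 2 GoF libraries (red circles); asterisks mark called genes. Mmp9 is at 3167 and 2403 FPKM in WT and at 3.27 and 2.56 FPKM in GoF, and Lepr overlaps between the groups.

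In the hedgehog pathway the called receptor and effector were lower and the ligand was higher. Of 14 pathway genes 10 were tested, and Ptch1 and Gli2 were lower and Ihh higher. Ptch1, the hedgehog receptor and a direct target of the signal, was at 1.51 and 2.90 FPKM in GoF and at 18.4 and 13.9 FPKM in WT, 7.32-fold lower (adjusted p = 0.0157, lost without GoF library 1, WT library 1 or WT library 2, at 0.104, 0.140 and 0.0760). Gli2, a transcription factor of the pathway, was at 0 and 0.315 FPKM in GoF and at 5.31 and 6.001 FPKM in WT (adjusted p = 0.0235, up to 0.137 without each of the 4 libraries). Both GoF libraries lay below both WT libraries in these 2 genes.

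Called BMP ligands were mostly higher, as was a BMP target. Of 32 genes 24 were tested, and Bmp2, Bmp8a, Gdf5, Bambi and Id1 were higher. Bmp5, named after its values were seen, was lower, and the median log2 difference was 0.51. Bmp2, a potent inducer of bone, was at 30.7 and 16.9 FPKM in GoF and at 1.40 and 0 FPKM in WT, 34.0-fold higher (log2 difference 3.94 ± 0.60 SE, adjusted p = 0.00647, or 0.0742 and 0.0606 without GoF library 1 and WT library 2). Bmp8a was at 87.4 and 60.9 FPKM in GoF and at 4.56 and 6.96 FPKM in WT, 12.9-fold higher (adjusted p = 0.00308), and its call held without any 1 of the 8 libraries. Reads may be shared with Bmp8b, a close copy named after its values were seen, which was also higher (adjusted p = 0.00138). Id1, a direct target of BMP signals, was at 67.0 and 61.4 FPKM in GoF and at 6.49 and 3.43 FPKM in WT, 12.9-fold higher (adjusted p = 0.00442, lost without GoF library 1, GoF library 2 or WT library 2, at 0.0641, 0.0528 and 0.0527). Id3 did not pass (adjusted p = 0.304).

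Part of the IGF system was lower. Of 13 tested genes, Igfbp3, Igfbp4, Igfbp7 and Pappa were lower, 0 were higher and 9 did not pass (median log2 difference -0.66). Igfbp4 was at 1.29 and 5.56 FPKM in GoF and at 106 and 43.9 FPKM in WT, 21.9-fold lower (adjusted p = 0.00496, or 0.0804 and 0.0772 without GoF library 1 and WT library 1). Igfbp3 was listed at 0 in GoF and was at 11.8 and 13.9 FPKM in WT (adjusted p = 0.00381). Pappa, the protease that cleaves Igfbp4, was listed at 0 in GoF and was at 4.47 and 4.71 FPKM in WT (adjusted p = 0.0461, up to 0.242 without each of the 4 libraries). Igfbp7 was 6.21-fold lower (adjusted p = 0.00215). The ligand gene Igf2 was at 13.4 and 25.5 FPKM in GoF and at 1.61 and 4.25 FPKM in WT (adjusted p = 0.0562, or 0.0243 with median ratio scaling).

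In the FGF family both called genes fell. Of 13 tested genes, Fgfr2 and Fgf7 were lower. Fgfr2 was at 0.598 and 1.89 FPKM in GoF and at 24.9 and 27.8 FPKM in WT, 21.2-fold lower (log2 difference -3.67 ± 0.48 SE, adjusted p = 0.00313), and its call held without any 1 of the 8 libraries. Fgfr1 did not pass (adjusted p = 0.0768, or 0.0342 with median ratio scaling). Of 15 tested CCN and matricellular genes, Wisp2, Ctgf and Tnc were lower and Thbs4 was higher (adjusted p = 0.0447, and 0.202 and 0.179 without WT library 1 and WT library 2). Wisp2 (Ccn5), a small matricellular protein, was at 0 and 1.27 FPKM in GoF and at 70.3 and 33.2 FPKM in WT, 81.5-fold lower (log2 difference -5.04 ± 0.48 SE, adjusted p = 0.000827, called in all 19 alternatives). Ctgf was 4.67-fold lower (adjusted p = 0.00799, lost without GoF library 1, GoF library 2 or WT library 1, up to 0.102). In limma 0 of the 10 tested Notch genes and 0 of the 15 tested TGF-β genes were called, beside 4.1% of all genes. An unadjusted p under 0.05 was reached by 3 and 3 of them, beside 1882 of all 10919 genes. Their median log2 differences were -0.92 and -0.14, against -0.07 over all genes. Tgfb2 was nearest to the threshold, at 38.3 and 44.0 FPKM in GoF and at 11.6 and 4.46 FPKM in WT (adjusted p = 0.0513, or 0.0412 with median ratio scaling).

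Of 27 tested cell cycle genes Top2a, Aurkb and Mcm4 were lower, and Cdkn1a, which encodes a cell cycle inhibitor, was higher (median log2 difference -1.21). Median ratio scaling called 6 lower, and sex as a covariate called 0 lower. The main fit called 2.57% of all genes higher and 1.53% lower. Cdkn1a was at 642 and 667 FPKM in GoF and at 75.7 and 120 FPKM in WT, 6.70-fold higher (log2 difference 2.77 ± 0.47 SE, adjusted p = 0.0113). Aurkb, a mitotic kinase, was at 0.416 and 0.650 FPKM in GoF and at 12.8 and 9.18 FPKM in WT, 20.6-fold lower (adjusted p = 0.0124). Ccnd2, a cyclin and the most abundant member not called, lay higher in GoF. It was at 1752 and 101 FPKM in GoF and at 94.2 and 61.6 FPKM in WT (limma, adjusted p = 0.296). Cdkn1a and Aurkb lost their calls without each of the 4 libraries (adjusted p up to 0.131 and 0.124), while with sex as a covariate Cdkn1a passed (adjusted p = 0.0173) and Aurkb did not (0.181). Erythroid precursors also divide, and erythroid marker RNA summed higher in WT, but its part in these genes was not tested.

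Replication-dependent histone genes were higher where called. Of 70 listed 32 were tested, and 7 were higher and 0 lower, beside 2.57% called higher over all genes. With sex as a covariate 2 were called higher. Hist1h2al among the 7 is annotated as a processed pseudogene. Hist1h2bc was at 522 and 421 FPKM in GoF and at 70.2 and 60.7 FPKM in WT, 7.21-fold higher (adjusted p = 0.000827), and kept its call in all 19 alternatives. Hist2h2aa1 and Hist2h2aa2 are near-identical copies, so their values are uncertain. Hist1h2ao, the most abundant member that was not called, was at 2.56 and 45.9 FPKM in GoF and at 72.3 and 130 FPKM in WT (adjusted p = 0.152).

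Xbp1, Trib3 and Atf3 rose among the stress response genes. Of 26 tested genes for the unfolded protein or integrated stress responses, 3 were higher, 0 lower and 23 not past the test. The share of all genes called higher was 2.57%. Xbp1, a transcription factor that expands the secretory apparatus, was at 316 and 349 FPKM in GoF and at 77.6 and 62.1 FPKM in WT, 4.76-fold higher (adjusted p = 0.00455, or 0.0543 without WT library 2). The Trib3 call was lost without GoF library 1, WT library 1 or WT library 2 (up to 0.220) and the Atf3 call without each of the 4 libraries (up to 0.137). The abundant chaperone P4hb was at 760 and 772 FPKM in GoF and at 531 and 427 FPKM in WT (adjusted p = 0.282).

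**Figure D5:**
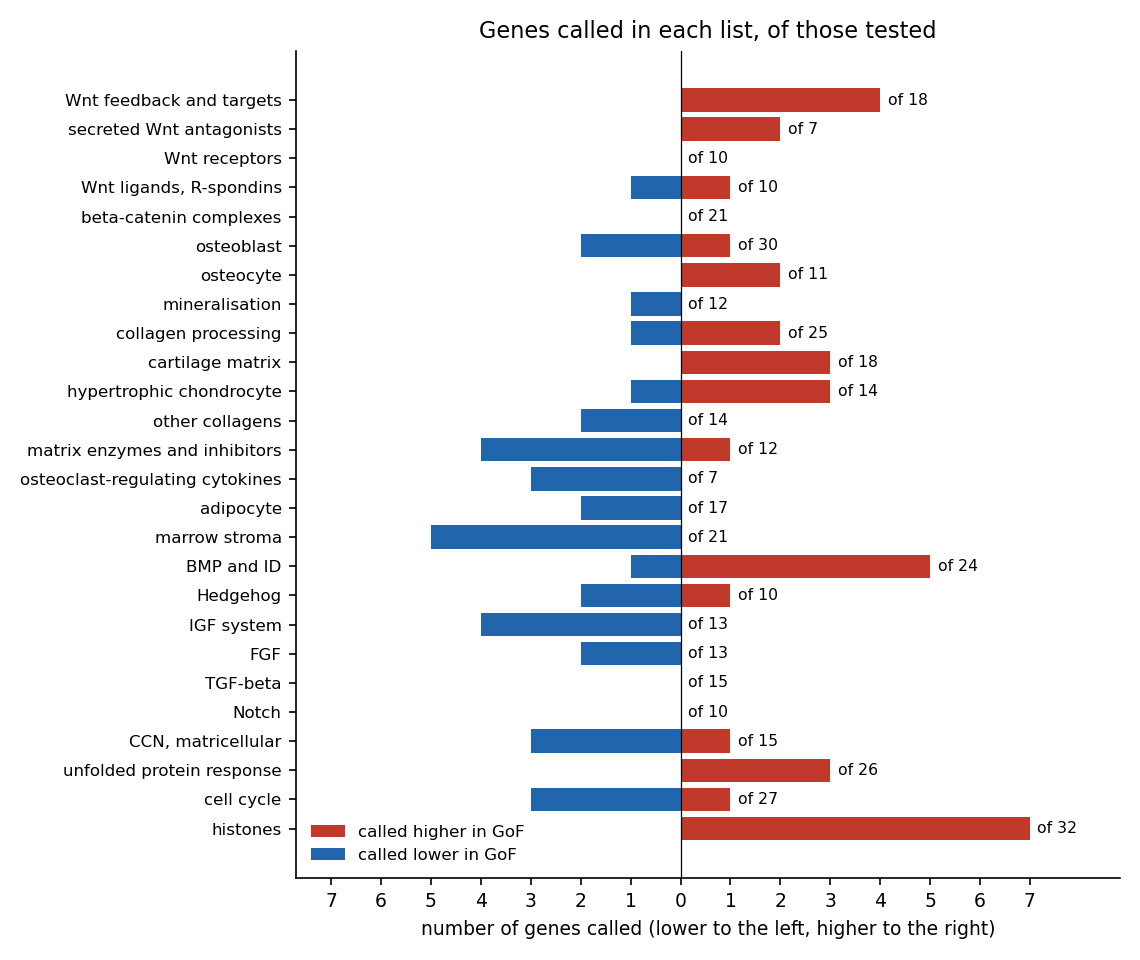
Number of genes called higher (red, to the right) and lower (blue, to the left) in GoF in 26 gene lists, with the number tested beside each bar. BMP and histone genes are mostly to the right, and matrix enzymes, marrow stroma and the IGF system mostly to the left.

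Several of the largest differences were in hormone, receptor and enzyme genes. Cck, cholecystokinin, was at 56.6 and 41.6 FPKM in GoF and listed at 0 in WT and LoF (adjusted p = 0.000384). Gal, galanin, another neuropeptide, was at 494 and 288 FPKM in GoF and at 33.04 and 15.3 FPKM in WT, 16.2-fold higher (adjusted p = 0.0477, up to 0.402 without each of the 4 libraries). Car12, a membrane carbonic anhydrase, was at 96.4 and 55.0 FPKM in GoF and listed at 0 in WT (adjusted p = 0.000804). Cck and Car12 were called in all 19 alternatives, while the call of Gal stood at the threshold. For Cck the alternatives that left out a GoF library could not test the call, since all remaining WT and LoF values were 0. Sstr2, a somatostatin receptor, was at 0.517 and 0 FPKM in GoF and at 92.8 and 58.4 FPKM in WT, 293-fold lower (adjusted p = 0.000384). Ece1, an endothelin-converting enzyme, was at 2.38 and 1.36 FPKM in GoF and at 256 and 152 FPKM in WT, 109-fold lower (adjusted p = 0.00236, or 0.0533 without GoF library 2). Vdr, the vitamin D receptor, was at 0.932 and 0.981 FPKM in GoF and at 21.99 and 15.3 FPKM in WT, 19.5-fold lower (adjusted p = 0.00313). Mest, an imprinted gene of growing tissue, was 19.0-fold lower (adjusted p = 0.00265), and S1pr3, a sphingosine phosphate receptor, 27.9-fold lower (adjusted p = 0.00138).

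Of the genes called higher, the most abundant over the 4 libraries was Itm2b, a membrane protein that is cleaved into secreted peptides. It was at 2931 and 3509 FPKM in GoF and at 392.4 and 379.8 FPKM in WT, 8.34-fold higher (log2 difference 3.05 ± 0.25 SE, adjusted p = 0.000384). The 4 LoF libraries, at 331 to 444 FPKM, were near WT. Rnaset2b, a lysosomal ribonuclease, was 6.57-fold higher (adjusted p = 0.00199), although its reads can be shared with its near-identical copy Rnaset2a. Clu, clusterin, was at 242 and 202 FPKM in GoF and at 19.5 and 1.49 FPKM in WT (adjusted p = 0.0189, lost without GoF library 1, GoF library 2 or WT library 2, up to 0.225). Of the abundant genes called lower, Ifitm3, an interferon-induced membrane protein, was at 43.7 and 31.3 FPKM in GoF and at 240 and 239 FPKM in WT, 6.39-fold lower (adjusted p = 0.00212). Fap, a serine protease of activated fibroblasts, was 6.55-fold lower (adjusted p = 0.00332, or 0.0516 without WT library 1).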

How the data were processed

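Pools of 70 hand-picked tdTomato-positive cells were amplified with Smart-seq2, per the labels' protocols. The deposited values are the authors' FPKM of each gene in each library. The genome build mm10 and the tools Cufflinks, HTSeq, HISAT2 and SAMtools 0.1.18 come from the submitters' processing notes, which as used here give no roles. Smart-seq2 does not mark strand, so antisense partners cannot be told apart. Read totals are unknown, so relative depth was read from the step between low values, and no counting interval was computed. The 65 lines that repeated a gene ID were dropped. The 3 groups were fitted together with limma 3.58.1 (R 4.3.3) on log2(FPKM + 1) with a mean-variance trend, without further scaling. The contrast was GoF minus WT, two-sided, adjusted over 10919 genes and called under 0.05. Folds are ratios of mean FPKM. The code was tested on simulated data.

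The comparison, the gene lists and the named genes were chosen with earlier results of these data known. Named genes were the 12 largest and 12 most abundant called genes in each direction, up to 5 called members and the most abundant uncalled member of each of 48 lists, a set of lineage genes irrespective of their change, and the 6 highest genes in each direction that were listed at 0 in the other group. Not all of these genes are described here. Markers of other cell types are named from their lists. Other genes are said to be named after their values were seen. Predicted genes, Y-linked genes and Xist were left out. Alternatives changed the pseudocount, filter, scaling, libraries, trend, replicate block and sex term. Sex with median ratio scaling was added after the data were seen.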

Additional observations from a re-analysis of the deposited data

How the results depend on the processing

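The count of 448 genes (281 higher, 167 lower) fell most with sex as a covariate, to 39 (26 higher, 13 lower), and to 76 (54 higher, 22 lower) with sex and median ratio scaling together, an alternative chosen after seeing the data. A filter over all 8 libraries, which tested 12888 genes, gave 298 (182 higher), and fitting the 4 libraries alone gave 105 lower genes. Leaving out 1 library gave 111 to 480 genes in all, 80 to 295 higher and 31 to 185 lower, and WT library 1 and WT library 2 mattered most. All other alternatives stayed within 1.5 times of these counts. The share of calls that were higher was 62.7%, against 66.9% under median ratio scaling and 61.0% after quantile normalization. Without GoF library 1 and WT library 1 it was 74.2% and 72.1%. With the replicate block the count was 343 (208 higher, 135 lower), and 28 of the 129 calls chosen for closer checks were lost, with an adjusted p up to 0.104. The deviations of GoF library 1 and WT library 1 from their group means had a correlation of 0.008. With 2 libraries in each group this value cannot show whether same-numbered libraries share more than a number. Over the named genes and alternatives, 2945 results kept their side of the threshold, 758 called differences lost it, 40 uncalled ones passed it and 0 called differences changed direction. The cause of these differences was not tested. Depth in reads is unknown, so a gene listed at 0 may be present below detection.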

Other observations

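Several called genes belonged to none of the groups described above. Adamtsl2, a secreted protein that binds matrix microfibrils, was at 32.6 and 14.98 FPKM in GoF and at 0.516 and 0 FPKM in WT. The call (limma, adjusted p = 0.00199) was lost with sex as a covariate (adjusted p = 0.0543). It held without any 1 of the 8 libraries. Adamtsl2 was listed at 0 in every LoF library, so leaving out a GoF library left little spread and hardly tested the call. Pkm, pyruvate kinase of glycolysis, was at 210 and 251 FPKM in GoF and at 70.2 and 80.5 FPKM in WT (adjusted p = 0.0302, lost without each of the 4 libraries, up to 0.190). Of 24 tested glycolysis and hypoxia genes Pkm and Ndrg1 were higher and 22 did not pass, beside 2.57% called higher over all genes. Ptn, the heparin-binding growth factor pleiotrophin, was at 125 and 232 FPKM in GoF and at 12.1 and 3.84 FPKM in WT (adjusted p = 0.0152, lost without each of the 4 libraries, up to 0.173). Nrp1, a receptor of semaphorins and VEGF, was at 8.44 and 6.25 FPKM in GoF and at 36.8 and 24.7 FPKM in WT (adjusted p = 0.0132, or 0.0630 and 0.129 without GoF library 2 and WT library 1).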
